A study of Mus musculus with 16 samples.

Results

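Mouse colon organoids labelled as mutant for Atf2 and Atf7 were compared with wild-type (WT) organoids after both had received tumour necrosis factor alpha (TNFa). The comparison took the 4 arrays titled ATF2/7 fl with TNFa and the 4 arrays titled WT with TNFa, 8 of the 16 arrays of the series, by title alone. Organoids, cultured spheres of intestinal epithelium, were grown in ENR medium, and the treated ones received recombinant TNFa at 50 ng/ml for 12 h. The remaining 8 arrays were 4 WT and 4 mutant samples without TNFa, which give the background genotype difference. The labels disagree on the mutant: the sample descriptions name an ATF2 KO with floxed ATF7, while the genotype entries read ATF2 fl/fl / ATF7 KO. No label states that a floxed allele was recombined, names a Cre driver, or says that the numbered samples were separate animals or cultures. The p-values below therefore measure the spread between these samples, part of which may be technical.

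ATF2 and ATF7 are closely related bZIP transcription factors activated through phosphorylation by JNK and p38, the stress kinases, and they bind DNA as dimers with each other or with Jun proteins. Their dimers are known to bind the cyclic AMP response element (CRE) and related AP-1 sites. TNFa, a cytokine of intestinal inflammation, acts on epithelium through its receptors to switch on NF-kB and the same stress kinases. Colon epithelium is made of stem cells, absorptive colonocytes, mucus-secreting goblet cells and hormone-secreting enteroendocrine cells. Paneth cells, which secrete lysozyme and alpha-defensins, are a cell type of the small intestine and are scarce in normal colon.

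Values are deposited log2 signals, so a difference of 1 is a 2-fold difference, and each gene is compared only with itself. Of 18850 named genes, 11766 were bright enough to test and 7084 were set aside as dim. A group mean under 6.56 log2, the highest of the arrays' 40th percentiles, is called dim here, and a fold against it is approximate. The colon marker genes Car1 (carbonic anhydrase 1) and Hoxb13 (a posterior homeobox gene) were bright on all 8 arrays, at 12.66 to 12.82 and 10.09 to 10.43 log2. The array WT + TNFa 2 correlated less well with its group (mean r 0.977) than the other WT + TNFa arrays (0.986 to 0.988) or the mutant + TNFa arrays (0.994 to 0.995). Counts are therefore also given without it where they move.

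Under TNFa, 184 genes were higher and 133 lower in mutant organoids, 317 of 11766 tested genes, or 2.69% (limma with Benjamini-Hochberg adjustment, adjusted p under 0.05). The difference was at least 2-fold for 23 of the higher and 14 of the lower genes, and 14 of these 37 had a dim group. Genes of Paneth and enteroendocrine cells and 4 neighbouring Hoxd genes were higher, while fibronectin, clusterin, the cathepsin inhibitor gene Ctla2a and several ion transporters of absorptive cells were lower. The median absolute difference of the called genes was 0.47 log2 and the smallest was 0.19, against a median difference of −0.0012 over all genes tested. The groups did not overlap for 308 of the 317 called genes, while 8.89% of all tested genes had groups that did not overlap (4.27% with the mutant above, 4.62% with it below). Without WT + TNFa 2, 340 genes were called, of which 251 were among the 317. Leaving out any 1 other array lowered the number called. It was 283, 244 and 281 without WT + TNFa 1, 3 and 4, and 192, 216, 233 and 198 without mutant + TNFa 1 to 4. By direction there were 122 higher and 70 lower genes without mutant + TNFa 1, and 133 and 83 without mutant + TNFa 2. The counts were 126 and 107 without mutant + TNFa 3, and 117 and 81 without mutant + TNFa 4.

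**Figure D1:**
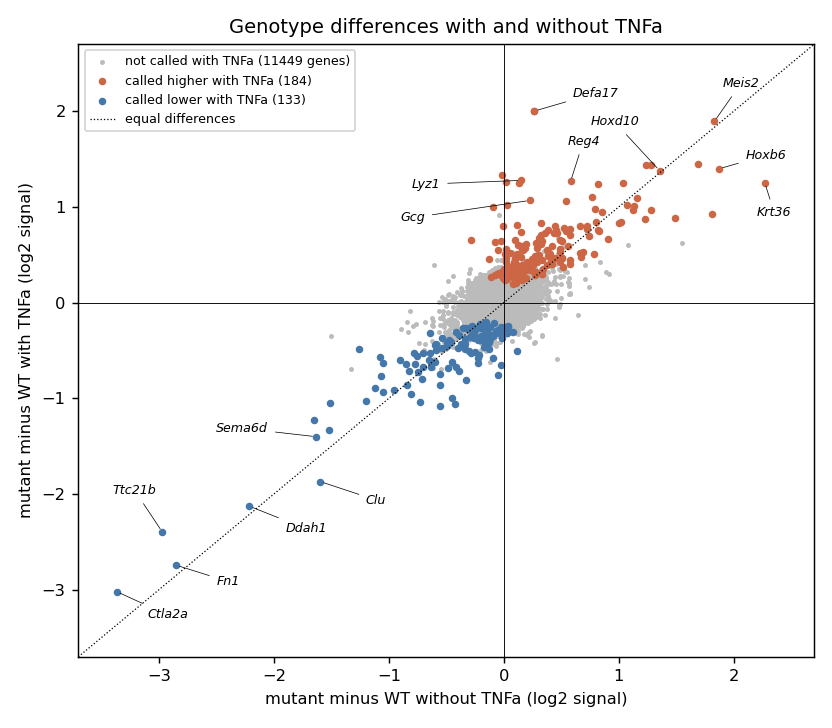
Genotype difference (mutant minus WT, log2 signal) of each of 11766 genes with TNFa (vertical) and without TNFa (horizontal), with the 184 genes called higher and the 133 called lower under TNFa in colour. Ctla2a, Fn1, Ttc21b, Ddah1 and Meis2 lie near the dotted line of equal differences, while Defa17, Lyz1 and Gcg lie far above it.

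Promoter sequences were read for 3 of the called genes because each holds a site of the kind that ATF2 and its partners bind. Shown are the 250 bases before the annotated start of Scg2 (chr1:79440027-79440276, minus strand), Dusp8 (chr7:142095285-142095534, minus strand) and Ctla2a (chr13:60936567-60936816, minus strand), from RefSeq on GRCm38.p6, written 5′ to 3′. Capitals mark the CRE (TGACGTCA) in Scg2 and Dusp8 and the AP-1 site (TGANTCA) in Ctla2a.
Scg2: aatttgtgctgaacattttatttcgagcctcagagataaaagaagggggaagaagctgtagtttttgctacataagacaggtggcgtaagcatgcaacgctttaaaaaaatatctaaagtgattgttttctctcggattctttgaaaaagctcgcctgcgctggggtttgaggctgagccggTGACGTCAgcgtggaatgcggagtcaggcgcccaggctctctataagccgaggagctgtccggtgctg
Dusp8: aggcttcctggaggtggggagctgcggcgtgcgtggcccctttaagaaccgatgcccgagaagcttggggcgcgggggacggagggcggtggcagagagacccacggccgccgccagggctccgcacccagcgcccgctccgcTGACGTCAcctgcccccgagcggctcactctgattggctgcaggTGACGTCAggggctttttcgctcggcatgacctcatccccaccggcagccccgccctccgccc
Ctla2a: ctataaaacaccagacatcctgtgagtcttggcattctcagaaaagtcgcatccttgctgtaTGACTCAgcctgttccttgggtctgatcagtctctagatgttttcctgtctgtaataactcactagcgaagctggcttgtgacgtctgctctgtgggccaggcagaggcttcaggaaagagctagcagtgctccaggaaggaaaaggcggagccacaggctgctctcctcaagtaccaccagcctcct
The CRE of Scg2 begins 68 bases before the start, those of Dusp8 begin 107 and 63 bases before it, and the AP-1 site of Ctla2a lies 188 bases before this start and 129 before a further annotated start. Scg2, which encodes the granule protein secretogranin II, was higher in mutant organoids, whereas Dusp8, a phosphatase that inactivates JNK and p38, and Ctla2a were lower.

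The motifs were counted on both strands in windows from 250 bases before to 50 after the start, for the 9561 tested genes with an entry in the RefSeq promoter table. A CRE lay in 4 of 180 promoters of genes called higher (2.22%), 2 of 131 of genes called lower (1.53%) and 2.96% of the promoters of all tested genes. The promoters with one were those of Scg2, Fstl4, Ptprs and Retreg1 among the higher genes and of Dusp8 and Zwint among the lower ones. An AP-1 site lay in 15 of 180 promoters of higher genes (8.33%), 17 of 131 of lower genes (13.0%) and 5.82% of those of tested genes. Ctla2a, Emp1 and Me1 were among the lower genes with one, and Hoxd11 and Il1a among the higher. The related C/EBP-ATF element (TGATGCAA) was in 2 promoters of higher genes (1.11%) and 0 of lower ones, against 0.654% for tested genes. The NF-kB consensus site was in 4 promoters of higher genes (2.22%) and 0 of lower ones, against 0.48% for tested genes. These matches describe the windows only and were not tested.

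The largest falls were those of Ctla2a, Fn1 and Ttc21b. Ctla2a, a cathepsin L inhibitor, was at 6.65, 7.76, 7.35 and 7.56 log2 on the 4 WT + TNFa arrays and at 4.49, 4.19, 4.63 and 3.94 on the mutant ones. The groups were far apart, and the mutant values were dim. The difference was −3.02 log2 (SE 0.40, 8.11-fold, limma adjusted p = 0.000314). Fn1, which encodes the matrix protein fibronectin, read 7.51, 8.02, 8.48 and 8.57 in WT and 5.21, 5.51, 5.19 and 5.70 in mutant organoids, again without overlap. It was lower by 6.70-fold (−2.74 log2, SE 0.34, limma adjusted p = 0.000169). Ttc21b, a subunit of the complex that carries cargo back along the cilium, fell from 8.47, 7.98, 8.59 and 8.51 to 6.20, 5.82, 6.17 and 5.78, a difference of −2.39 log2 (SE 0.21, limma adjusted p = 6.4e-06). All 3 genes were dim in the mutant group, so their folds are approximate.

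Bright genes fell as well. Ddah1, which breaks down an inhibitor of nitric oxide synthases, read 9.80, 10.14, 10.17 and 10.23 log2 in WT and 7.97, 8.15, 8.01 and 7.70 in mutant organoids with TNFa. It was lower by 4.37-fold (−2.13 log2, SE 0.18, limma adjusted p = 3.9e-06). Clu, which encodes the secreted chaperone clusterin, read 10.52, 10.63, 11.07 and 10.81 in WT and 8.51, 9.09, 9.09 and 8.87 in mutant organoids. The gap between the Clu groups was wider than either group's range, and the difference was −1.87 log2 (SE 0.30, limma adjusted p = 0.00170). Sema6d, a transmembrane semaphorin, was lower by 2.64-fold and the Ly6-family genes Gml2 and Gml by 2.52-fold and 2.35-fold, Gml2 with a dim mutant group. Slc9a3, the apical sodium/proton exchanger NHE3, read 10.57, 10.93, 10.45 and 10.75 in WT and 9.64, 9.47, 9.74 and 9.75 in mutant organoids, and was lower by 2.03-fold (−1.02 log2, limma adjusted p = 0.000646). The steroid dehydrogenase gene Hsd3b3 (2.07-fold) and the serpin Serpinb11 (2.00-fold) were lower too. The uncharacterised 4933400A11Rik (2.08-fold) and the exocytosis gene Rims2 (1.93-fold) had dim mutant groups, and 4933400A11Rik separated narrowly, at 6.26 to 7.18 in WT and 5.63 to 6.14 in mutant organoids. Il5ra, an interleukin 5 receptor chain (2.12-fold, adjusted p = 0.0387), and Pgf, a growth factor of the VEGF family (2.06-fold, adjusted p = 0.0376), were close to the limma threshold. Il5ra lost its call without any 1 of 5 of the 8 arrays and Pgf without any 1 of 7 (limma adjusted p up to 0.134 and 0.135).

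Among the rises, Meis2 and Hoxb6 encode homeodomain transcription factors of body patterning. Meis2 read 5.85, 5.14, 5.02 and 4.94 log2 in WT and 7.10, 7.60, 6.84 and 6.97 in mutant organoids with TNFa, from a dim WT group, and was 3.71-fold higher (1.89 log2, SE 0.20, limma adjusted p = 3.9e-05). Hoxb6 also rose out of the dim range (1.40 log2, SE 0.13). Ppef1, a calcium-binding protein phosphatase (1.45 log2), Adcy8, an adenylyl cyclase (1.44 log2, with both group means dim), and Mtus2, a microtubule-associated protein (1.43 log2), likewise had a dim WT group. Fxyd4, a regulator of the sodium pump, was bright in both groups, with 7.93, 7.61, 7.33 and 7.61 in WT and 8.92, 8.81, 8.65 and 9.10 in mutant organoids (1.25 log2, SE 0.11, limma adjusted p = 5.05e-06). Krt36, a hair-type keratin, was higher by 1.25 log2 (SE 0.28, adjusted p = 0.0191), and lost its call without WT + TNFa 1, mutant + TNFa 1 or mutant + TNFa 4 (limma adjusted p up to 0.0753).

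**Figure D2:**
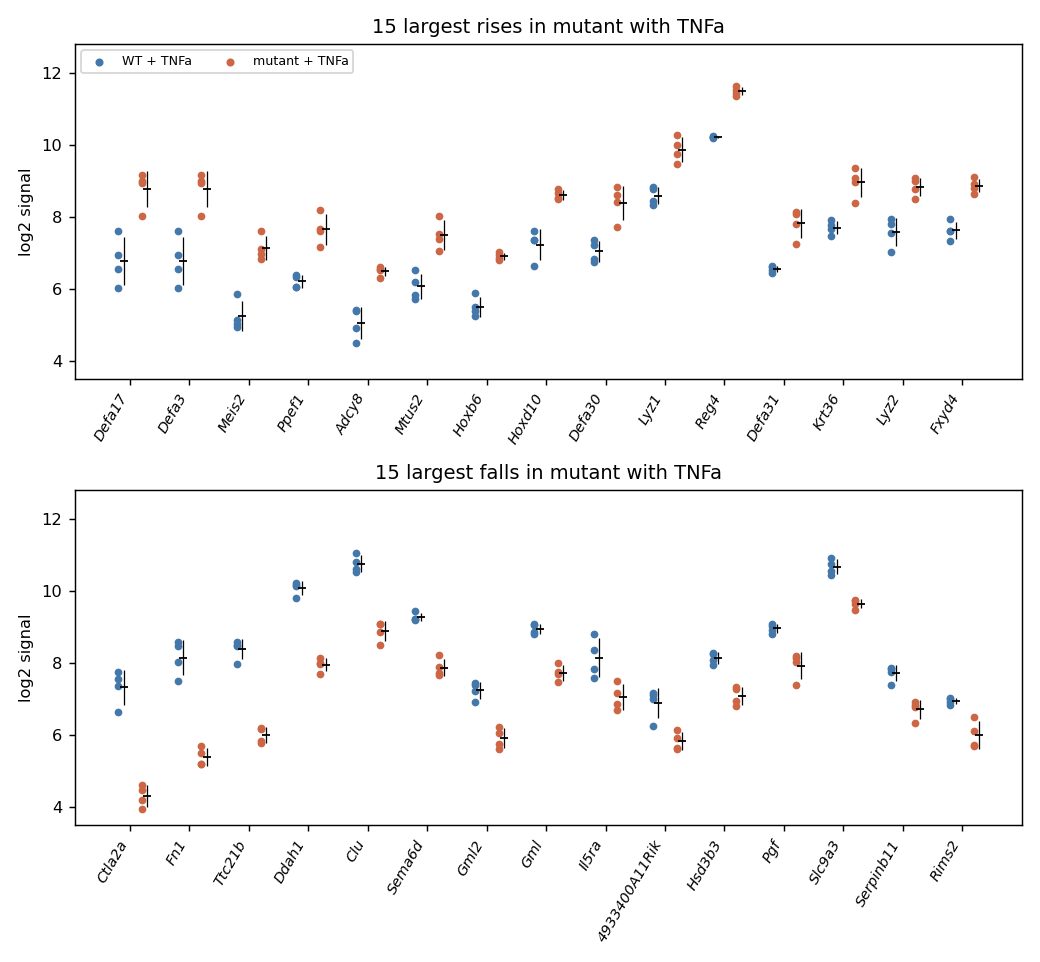
Log2 signal of the 15 largest rises (top) and 15 largest falls (bottom) among called genes, on each of the 4 WT + TNFa and 4 mutant + TNFa arrays; points are arrays and the bars beside them are the mean ± SD. The groups do not overlap for any of the 30 genes, and Ctla2a, Fn1 and Ttc21b fall below 6.56 log2 in mutant organoids.

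Paneth cell genes were higher in mutant organoids. Of 23 tested genes listed for Paneth cells and small intestine, 11 were higher and 0 lower, with a list median of 0.34 log2 beside −0.0012 over all tested genes and 1.56% of all tested genes called higher. This list and those below were chosen with earlier results of these data known, so their shares are descriptions and not tests. The antimicrobial enzyme gene Lyz1 read 8.43, 8.33, 8.77 and 8.83 log2 in WT and 9.75, 9.46, 9.99 and 10.26 in mutant organoids with TNFa. Every mutant array was above every WT array, by 1.28 log2 on average (SE 0.20, 2.42-fold, limma adjusted p = 0.00153). Its close copy Lyz2, also a macrophage gene, was higher by 1.25 log2 (adjusted p = 0.00177). The alpha-defensin gene Defa17 read 6.94, 6.01, 7.60 and 6.55 in WT and 8.93, 8.02, 9.16 and 8.98 in mutant organoids. This was the largest rise of all (2.00 log2, SE 0.33, 4.00-fold, limma adjusted p = 0.00225).

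The defensin genes are near-identical copies whose probes can share signal. Defa3 carried the same value as Defa17 on all arrays. Over the whole array 14 alpha-defensin genes were tested, with 11 distinct profiles. Of these genes 6 were called higher (Defa17, Defa3, Defa30, Defa31, Defa26 and Defa40) and 0 lower, and the 14 differences ran from 0.19 to 2.00 log2. Defa30 (1.34 log2) and Defa31 (1.26 log2, from a dim WT group) did not overlap between groups. Defa26 (0.65 log2, also from a dim WT group) separated narrowly, at 6.04 to 6.67 in WT and 6.68 to 7.31 in mutant organoids. It lost its call without WT + TNFa 4 or mutant + TNFa 1, 3 or 4 (limma adjusted p up to 0.0726).

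The rest of the Paneth and small intestine list was mixed in role. The pentraxin genes Mptx1 and Mptx2 read 11.35 to 11.82 and 9.79 to 10.24 log2 in WT and 12.19 to 12.24 and 10.60 to 10.68 in mutant organoids. They were higher by 0.60 log2 (SE 0.09, limma adjusted p = 0.000789) and 0.55 log2 (SE 0.09, limma adjusted p = 0.00256). Itln1, a lectin that binds microbial glycans, was higher by 0.97 log2 (SE 0.14, limma adjusted p = 0.000802). The defensin-processing protease Mmp7 (0.74 log2) and the brush-border peptidase Anpep (0.64 log2) were also called. Mmp7 lost its call without any 1 of 6 of the 8 arrays (limma adjusted p up to 0.151), and Anpep without WT + TNFa 3 or mutant + TNFa 1 (up to 0.0507). Without WT + TNFa 2 the list again had 11 higher genes and 0 lower.

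Enteroendocrine genes were higher too, with 9 of 22 tested genes higher, 1 lower and a median of 0.18 log2. Over all tested genes 1.56% were called higher and 1.13% lower. Gcg, which encodes the precursor of glucagon-like peptides, read 8.98, 9.0, 8.88 and 8.64 log2 in WT and 9.94, 9.64, 10.07 and 10.11 in mutant organoids with TNFa. The groups were well apart (1.07 log2, SE 0.11, 2.09-fold, limma adjusted p = 3.7e-05). The hormone gene Cck read 7.64 to 7.83 in WT and 7.91 to 8.93 in mutant organoids, where mutant + TNFa 2 was lowest and close to WT (0.81 log2, SE 0.15, limma adjusted p = 0.00566). Scg2, whose promoter is printed above, read 8.43, 8.49, 8.51 and 8.27 in WT and 9.28, 9.05, 9.40 and 9.29 in mutant organoids (0.83 log2, SE 0.10, limma adjusted p = 9.0e-05). Tph1, the enzyme that starts serotonin synthesis in the gut, was 1.75-fold higher (0.80 log2, adjusted p = 0.00272), and the peptidase subunit gene Cpn1 was higher by 0.80 log2 from a dim WT group.

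Smaller rises in the enteroendocrine list were those of the peptide hormone gene Pyy (0.37 log2, SE 0.07), the granule protein gene Chga (0.28 log2), the tachykinin gene Tac1 (0.46 log2) and the amine-synthesis gene Ddc (0.31 log2). Chga lost its call without mutant + TNFa 2 or 3 (limma adjusted p up to 0.0520). Tac1 and Ddc each lost theirs without any 1 of 6 of the 8 arrays (limma adjusted p up to 0.116 and 0.151). Cpe, the carboxypeptidase that trims prohormones, moved the other way: it read 11.63 to 11.84 in WT and 11.19 to 11.29 in mutant organoids (−0.51 log2, SE 0.06, limma adjusted p = 0.000127). Without WT + TNFa 2 the list again had 9 higher genes and 1 lower. In these bulk samples, more cells of a type and more RNA per cell cannot be told apart.

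Reg4, a lectin that deep crypt secretory cells release, had the tightest separation of the large rises. It read 10.20, 10.25, 10.22 and 10.23 log2 on the WT + TNFa arrays and 11.44, 11.36, 11.53 and 11.62 on the mutant ones. The difference was 1.26 log2 (SE 0.07, 2.40-fold, limma adjusted p = 2.6e-08). Of 27 tested goblet cell genes 3 were higher and 0 lower, with a median of 0.0047 log2, against 1.56% higher over all tested genes. The other two were Ang4, an antimicrobial ribonuclease (0.53 log2), and Klk1, a kallikrein (0.31 log2). Ang4 lost its call without any 1 of 7 of the 8 arrays (limma adjusted p up to 0.122) and Klk1 without any 1 of 5 (up to 0.0936). Muc2, the main colonic mucin, read 11.84 to 12.14 in WT and 12.12 to 12.16 in mutant organoids and was not called (0.10 log2, limma adjusted p = 0.530).

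**Figure D3:**
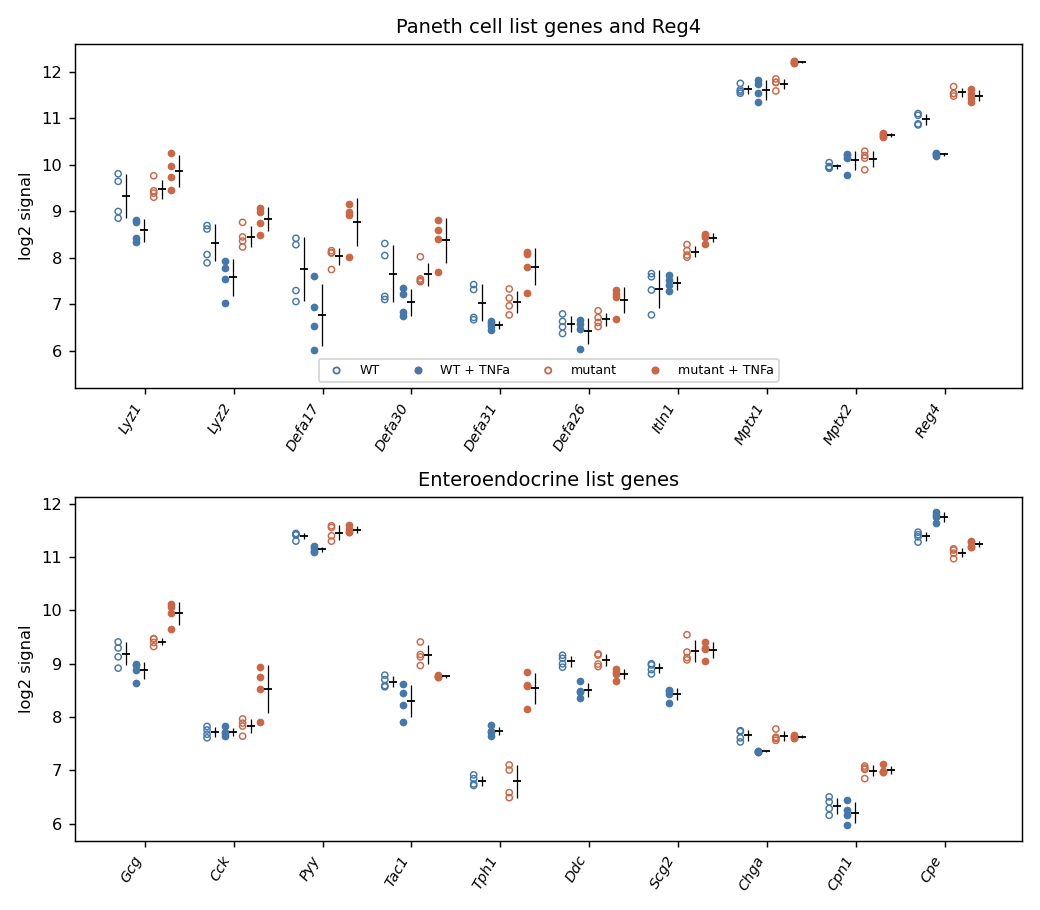
Log2 signal of called Paneth cell list genes and Reg4 (top) and of the called enteroendocrine list genes (bottom) on every array of the 4 groups; points are arrays and bars are the mean ± SD. Lyz1, Lyz2 and Defa17 are lowest in WT + TNFa and highest in mutant + TNFa, and Cpe is highest in WT + TNFa.

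Absorptive colonocyte genes were mostly lower where they were called. Of 32 tested genes 6 were lower and 2 higher, with a median of −0.13 log2, against 1.13% of all tested genes called lower. Besides Slc9a3, the lower genes were its relative Slc9a2 (−0.68 log2, SE 0.13), the membrane protein gene Emp1 (−0.69 log2, SE 0.08, limma adjusted p = 6.5e-05) and Tmigd1, an adhesion molecule of the brush border (−0.67 log2). Slc9a2 read 10.03 to 10.32 log2 in WT and 9.10 to 9.73 in mutant organoids, with no overlap. Guca2b, which encodes uroguanylin, was at 12.00 to 12.10 in WT and 11.67 to 11.80 in mutant organoids (−0.31 log2, limma adjusted p = 0.0135), and lost its call without mutant + TNFa 4 (0.0581). The phosphate transporter gene Slc20a1 (−0.45 log2) lost its call without any 1 of 6 of the 8 arrays (limma adjusted p up to 0.114).

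The 2 higher members were Hpgd, which inactivates prostaglandins (0.39 log2, limma adjusted p = 0.0118), and Car2, a carbonic anhydrase (0.19 log2, limma adjusted p = 0.0433). Car2 lost its call without any 1 of 6 of the 8 arrays (limma adjusted p up to 0.142). Without WT + TNFa 2 the list had 5 lower genes and 1 higher. The chloride/bicarbonate exchanger gene Slc26a3, a defining colonocyte gene, was not called (0.17 log2, limma adjusted p = 0.177).

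Genes of wound-associated and fetal-like epithelium went both ways. Of 27 tested genes 3 were lower (Fn1, Clu and Ankrd1, a YAP target) and 2 higher (Mmp7 and the keratin Krt23). The list median was −0.12 log2, and over all tested genes 1.13% were called lower and 1.56% higher. Krt23 read 7.22 to 7.65 log2 in WT and 7.86 to 8.45 in mutant organoids (0.77 log2, SE 0.12, limma adjusted p = 0.00175). Ankrd1 was dim in mutant organoids (−0.39 log2, limma adjusted p = 0.00604). Without WT + TNFa 2 there were 6 lower genes and 1 higher.

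In the stem cell and Wnt target list, 2 of 19 tested genes were higher and 0 lower (median 0.16 log2). They were Smoc2, a matricellular protein gene of crypt stem cells (0.43 log2, SE 0.08, limma adjusted p = 0.00568), and Lrig1, a growth factor receptor inhibitor (0.27 log2, limma adjusted p = 0.0251). Lrig1 lost its call without any 1 of 4 of the 8 arrays (limma adjusted p up to 0.0996). Lgr5, the stem cell receptor for R-spondin, read 7.73 to 8.14 in WT and 8.11 to 8.23 in mutant organoids and was not called (0.31 log2, limma adjusted p = 0.109). Without WT + TNFa 2 the list had 4 higher genes and 1 lower. Of 29 DNA replication and mitosis genes 0 were called (median 0.09 log2), and of 8 tuft cell genes 0. Over all tested genes 1.56% were called higher and 1.13% lower.

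Posterior Hoxd genes were higher in mutant organoids. Of 13 tested distal hindgut patterning genes 4 were higher and 0 lower, and these were the adjoining Hoxd10, Hoxd11, Hoxd12 and Hoxd13. The share called higher over all tested genes was 1.56%. Hoxd10 read 7.60, 6.62, 7.34 and 7.34 log2 in WT and 8.49, 8.76, 8.66 and 8.51 in mutant organoids with TNFa. WT + TNFa 2 was lowest, and the difference was 1.38 log2 (SE 0.15, 2.60-fold, limma adjusted p = 5.2e-05). Hoxd11 differed by 0.97 log2, Hoxd13 by 0.83 and Hoxd12, dim in WT, by 0.72. Hoxb13, on another chromosome, was not called (0.11 log2, limma adjusted p = 0.423). Higher Hox genes were not limited to Hoxd, however: Hoxb6, which is outside this list, was among the largest rises given above.

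These Hoxd genes lie 3 to 6 tested genes from Atf2 on its chromosome, which the labels name as altered. Among the 25 tested genes on each side of Atf2, 6 of 50 were called (12.0%), all higher: the 4 Hoxd genes, the RNA-binding protein gene Rbm45 (0.97 log2) and Ccdc141 (1.02 log2, from a dim WT group). Within 50 genes on each side 9 of 100 were called (9.0%), which added Ttc21b and Gcg on one side and the receptor phosphatase gene Ptprj (−0.94 log2) on the other. Within 200 genes on each side it was 18 of 400 (4.5%). On the rest of that chromosome it was 14 of 513 (2.73%), and on all other chromosomes 285 of 10852 (2.63%). Gene order came from RefSeq on GRCm38.p6. Atf2 itself, from 1 probe set, read 10.15 to 10.20 log2 in WT and 10.10 to 10.13 in mutant organoids. These ranges did not overlap, but the gene was not called (−0.06 log2, SE 0.06, 95% interval −0.19 to 0.07, limma adjusted p = 0.729). What part of the transcript the probe set covers is not given, so it checks neither allele. Among the probe sets used here 0 carried the symbol Atf7, and that gene was not analysed.

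**Figure D4:**
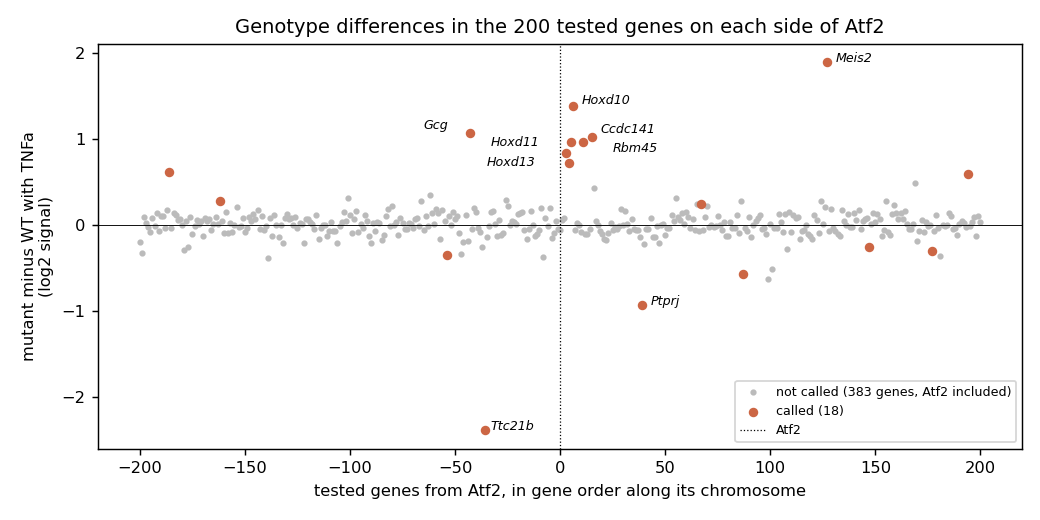
Genotype difference with TNFa (log2 signal) of the 200 tested genes on each side of Atf2, in gene order, with the 18 called genes in colour. The 4 Hoxd genes, Rbm45 and Ccdc141 lie together on one side, and Ttc21b has the lowest value.

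Of 24 tested NF-kB pathway and feedback genes 1 was lower and 0 higher (median −0.03 log2), of 19 chemokine and cytokine genes 1 was higher, and of 19 TNF ligand and receptor genes 1 was higher. Beside the 2.69% called over all tested genes, these single calls say nothing particular about the lists. The chemokine gene Ccl20 read 11.24 to 11.57 log2 in WT and 11.46 to 11.60 in mutant organoids, a difference of 0.08 (SE 0.11, limma adjusted p = 0.811). Nos2, the inducible nitric oxide synthase, overlapped in full (0.01 log2, SE 0.17, limma adjusted p = 0.995). Tnf (0.06 log2) and Nfkbia, which encodes the NF-kB inhibitor IkBa (0.11 log2), were not called either. Half-widths of the 95% intervals had a median of 0.18 log2 over all genes, before adjustment for the number of genes tested. Differences well above this could also be missed. The carbonic anhydrase gene Car4, for example, was not called at −0.65 log2 (limma adjusted p = 0.0887).

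The called genes of these lists were Tnfaip2, Il1a and Tnfsf10. Tnfaip2, a TNFa-induced gene, read 6.87, 6.55, 7.43 and 7.72 log2 in WT and 6.60, 6.09, 6.56 and 6.31 in mutant organoids, a dim group. The Tnfaip2 groups overlapped (−0.76 log2, SE 0.19, limma adjusted p = 0.0382). The cytokine gene Il1a read 7.55, 7.55, 7.85 and 8.26 in WT and 8.49, 8.37, 8.45 and 8.50 in mutant organoids (0.65 log2, SE 0.14, limma adjusted p = 0.0203). Tnfsf10, the death ligand TRAIL, was higher by 0.55 log2 (SE 0.14, limma adjusted p = 0.0480). Each was fragile: Tnfaip2 lost its call without any 1 of 6 of the 8 arrays, Il1a without any 1 of 4 and Tnfsf10 without any of the 8 (limma adjusted p up to 0.135, 0.0662 and 0.130).

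Of 18 interferon-stimulated genes, the membrane antiviral gene Ifitm3 was higher (0.80 log2, SE 0.13, limma adjusted p = 0.00228) and Bst2, which encodes tetherin, lower (−0.30 log2). Ifitm3 read 9.03 to 9.60 in WT and 9.92 to 10.20 in mutant organoids. Bst2 lost its call without any 1 of 7 of the 8 arrays (limma adjusted p up to 0.0984). Of 16 antigen presentation genes 0 were called. Of 14 antimicrobial and oxidase genes 2 were higher, Ang4 and Itln1, and 0 lower, against 1.56% and 1.13% of all tested genes.

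The factors' own family and partners were not called. Of 15 tested ATF and CREB family genes and 14 AP-1 subunit genes 0 were called in either direction, with medians of −0.02 and −0.0028 log2. Beside the 2.69% called over all tested genes, 0 calls in lists of this size say nothing particular about them. Jun, an AP-1 partner of ATF2 and a known target of its dimers, read 8.29, 8.23, 8.22 and 8.56 in WT and 7.96, 7.97, 8.08 and 8.05 in mutant organoids. The Jun groups did not overlap but missed the threshold (−0.31 log2, SE 0.08, limma adjusted p = 0.0670), while without TNFa Jun was called lower (−0.56 log2, limma adjusted p = 0.000857). Atf3, a stress-induced family member, differed by −0.13 log2 (limma adjusted p = 0.691).

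Of 27 tested genes of the MAPK phosphatase and stress kinase list 2 were lower and 0 higher, both of them phosphatases that inactivate MAP kinases. The share called lower over all tested genes was 1.13%. Dusp8, with its CRE pair printed above, read 8.25, 8.34, 8.15 and 8.04 in WT and 7.81, 7.70, 7.68 and 7.65 in mutant organoids. The groups were separate (−0.48 log2, SE 0.10, limma adjusted p = 0.0105). Dusp9 was lower by 1.24-fold (−0.32 log2, SE 0.06, limma adjusted p = 0.00634). Of 32 unfolded protein and integrated stress response genes, 28 cell death genes and 23 p53 targets, 0 were called. Over all tested genes 2.69% were called in either direction.

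The few called genes of the metabolism lists were mostly lower, beside 1.56% of all tested genes called higher and 1.13% lower. List medians were −0.0043 log2 (oxidative stress and glutathione), −0.0167 (cholesterol and fatty acid synthesis), −0.0711 (fat absorption) and 0.028 (xenobiotic and steroid metabolism). Of 34 oxidative stress and glutathione genes, the transferase genes Mgst1 (−0.53 log2, SE 0.08, limma adjusted p = 0.000789), Gstk1 (−0.34 log2) and Gstt1 (−0.22 log2) were lower and their relative Gstm5 (0.32 log2) higher. Gstk1 lost its call without any 1 of 5 of the 8 arrays and Gstt1 without any 1 of 7 (limma adjusted p up to 0.115 and 0.116). Of 25 cholesterol and fatty acid synthesis genes 2 were lower, the sterol demethylase gene Cyp51 (−0.27 log2) and the NADPH-producing malic enzyme gene Me1 (−0.87 log2). Of 18 fat absorption genes 2 were lower, the lipoprotein gene Apob (−0.63 log2) and the lipid droplet gene Plin2 (−0.27 log2). These 4 each lost their calls without any 1 of at least 4 of the 8 arrays (limma adjusted p up to 0.137, 0.101, 0.0910 and 0.166). Of 28 xenobiotic and steroid metabolism genes 2 were lower, Hsd3b3 and the cytochrome P450 gene Cyp2d12 (lost without any 1 of 4 arrays, limma adjusted p up to 0.115), and of 28 junction and keratin genes Krt36 was higher and the claudin gene Cldn15 lower.

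**Figure D5:**
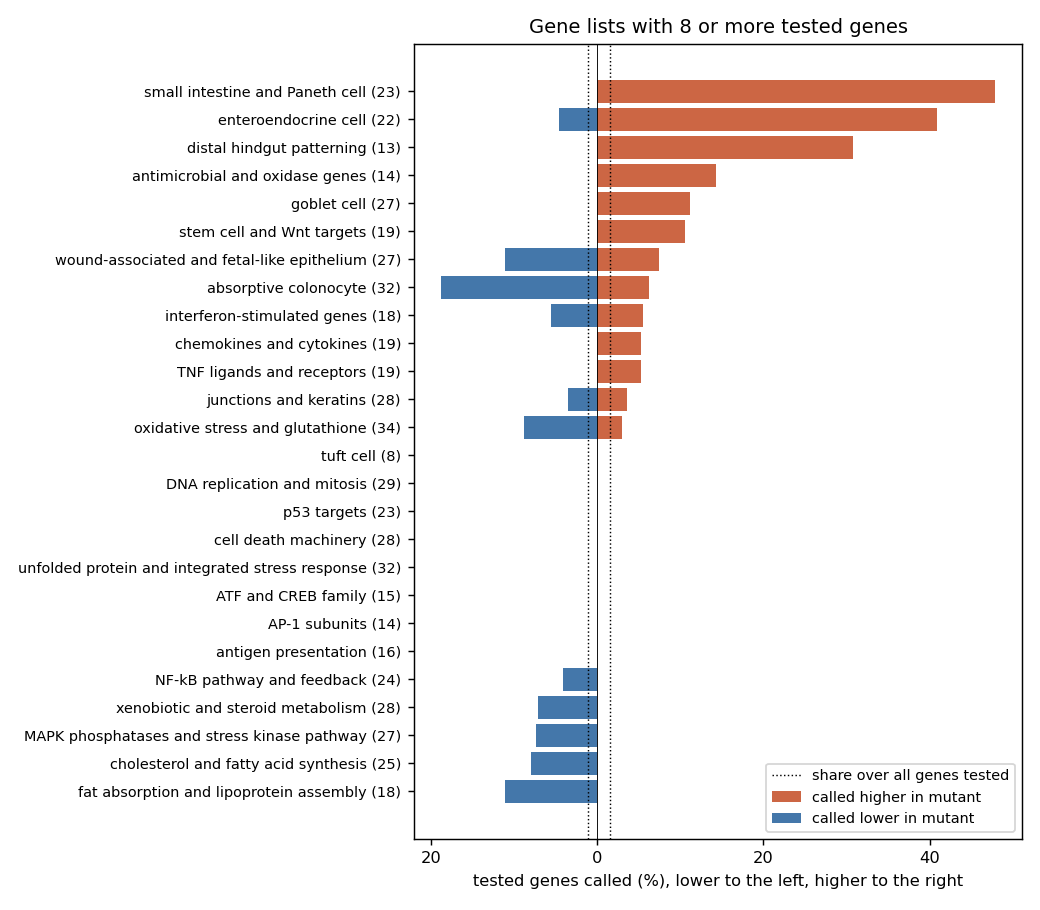
Share of tested genes (%) called higher (right) or lower (left) in mutant organoids with TNFa, for each gene list with 8 or more tested genes, the number tested in brackets; dotted lines mark the shares over all tested genes, 1.56% higher and 1.13% lower. The Paneth cell, enteroendocrine and distal hindgut lists reach farthest to the right and the absorptive colonocyte list farthest to the left. The lists were chosen with earlier results of these data known, so the shares are descriptions.

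Many markers of other cell types were dim, but not all. Of 18 immune cell genes on the array 15 were dim, Ptprc and Cd3e among them. The summed signal of the 18 reached at most 11.05 log2 in WT and ran from 11.05 to 11.18 in mutant organoids, and it holds Lyz2. The other called member was Cd14, which epithelium also expresses (−0.20 log2, lost without any 1 of 5 of the 8 arrays, limma adjusted p up to 0.0959). Of 17 fibroblast and smooth muscle genes 10 were dim, Col3a1 and Acta2 among them, and 0 of the 7 tested were called. Col1a1, a fibroblast collagen gene, averaged 8.10 in WT and 8.07 in mutant organoids, and the actin-severing gene Gsn 8.31 and 8.17. Their summed signal ran from 10.69 to 10.90 in WT and 10.69 to 10.83 in mutant organoids. Of 13 endothelial and glial genes 11 were dim and 0 called, with the endothelial adhesion gene Esam at 7.73 and 7.62. Among immune genes Ccr7, a chemokine receptor, averaged 8.30 and 8.25. The part of such cells in the results was not tested.

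Most of the genotype difference under TNFa had the same direction without TNFa, measured on 8 other arrays. There, 292 genes were called (2.48%), 118 of them higher (1%) and 174 lower (1.48%), and 123 of the 317 genes called with TNFa were called the same way. That is 38.8% of the TNFa calls and 42.1% of the untreated calls. No gene was called in opposite directions. Of the 317 genes, 291 had the same sign without TNFa (91.8%), against 58.3% of all tested genes. Their median ratio of the untreated to the TNFa difference was 0.593. These genes were picked by their TNFa difference, which by itself tends to lower this ratio, so it does not measure a change with TNFa. The largest falls were of like size without TNFa: Ctla2a differed by −3.37 log2, Fn1 by −2.85, Ttc21b by −2.97, Ddah1 by −2.21 and Clu by −1.60. Among the rises this held for Meis2 (1.83) and Hoxd10 (1.35).

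Lyz1, Defa17 and Gcg had smaller genotype differences without TNFa than with it. These genes too were picked by their TNFa difference, which by itself tends to leave a smaller difference without TNFa. Without TNFa, 2 of the 23 Paneth and small intestine genes and 2 of the 22 enteroendocrine genes were called higher. The untreated differences were 0.15 log2 for Lyz1 (limma adjusted p = 0.824), 0.26 for Defa17 (0.808) and 0.23 for Gcg (0.403). The untreated WT arrays were spread, however. Lyz1 read 9.81 and 9.65 on WT 1 and WT 2 and 8.85 and 9.0 on WT 3 and WT 4, and Defa17 read 8.28 and 8.42 against 7.30 and 7.06, while the mutant arrays without TNFa ran from 9.31 to 9.77 and from 7.75 to 8.16. Without WT 1 and WT 2, an alternative added after seeing the data, the untreated differences were 0.55 log2 for Lyz1, 0.85 for Defa17 and 0.39 for Gcg (limma adjusted p = 0.229, 0.343 and 0.184).

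Over all arrays, Lyz1 in WT averaged 9.33 without and 8.59 with TNFa, and in mutant organoids 9.48 and 9.87. The Gcg averages were 9.19 and 8.88 in WT and 9.41 and 9.94 in mutant organoids. The change of the genotype difference with TNFa was 1.13 log2 for Lyz1 (95% interval 0.52 to 1.73), 1.73 for Defa17 (0.74 to 2.73) and 0.84 for Gcg (0.50 to 1.18). These intervals do not allow for the picking of the genes by their TNFa difference. None of these changes passed when tested over all genes (limma adjusted p = 0.332, 0.345 and 0.143). Without WT 1 and WT 2 the changes were 0.72, 1.15 and 0.68 log2 (limma adjusted p = 0.564, 0.630 and 0.452).

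Over all genes 1 of 11766 (0.0085%) was called for a change of the genotype difference with TNFa, and 855 had an unadjusted p under 0.05. The called gene was Reg4. It averaged 10.98 log2 without and 10.23 with TNFa in WT, and 11.56 and 11.49 in mutant organoids. The genotype difference went from 0.58 to 1.26 log2, a change of 0.69 (95% interval 0.47 to 0.90, limma adjusted p = 0.0344). Reg4 lost this call without any 1 of 6 of the 8 TNFa arrays (limma adjusted p 0.0607 to 0.133). The call was also lost with no filter on dim genes (0.0564), with either replicate block (0.226 and 0.0579) and without untreated WT 1 and WT 2 (0.58 log2, limma adjusted p = 0.210). The median half-width of the 95% interval of such a change was 0.25 log2.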

How the data were processed

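RNA from 16 mouse colon organoid samples was measured on single-colour Affymetrix arrays. The deposited log2 values were made by the authors with RMA in Affymetrix Expression Console, per the submitters' processing notes; tool versions, array design and genome build are not given in the sources used here. Arrays have no read depth, so the 4 arrays in each group limit the precision. Where a gene had several probe sets, the one with the highest mean stood for it (18851 probe sets carried a symbol, 974 none). Genes above their array's 40th percentile on at least 4 of 16 arrays were tested. Group means were fitted with limma 3.58.1 in R 4.3.3 to all 16 arrays, and a gene was called at a Benjamini-Hochberg adjusted p below 0.05. The fit was tested on simulated data. Errors are the SE of the fit.

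The comparison's members and the 30 gene lists (783 entries, 705 distinct genes on the array, 572 tested) were chosen with earlier results of these data known; they share some members. Named by rule were the 15 largest rises and falls whose groups did not overlap, per list the 3 called genes of smallest p, Atf2, Atf7 (0 probe sets of that name, so not analysed), genes whose difference changed with TNFa, and the 6 tested genes on each side of Atf2. Further genes named, from the lists or near Atf2, were picked with their values in view. Of the 11766 tested genes, 165 passed the filter only through 1 of the TNFa groups, 16 of them called. Of the sex-linked list, 2 genes were on the array and both were dim. Alternatives were other filters, probe set rules, scalings, variance models, arrays, replicate blocks and thresholds, leaving out each of the 8 TNFa arrays, and leaving out untreated WT 1 and WT 2.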

Additional observations from a re-analysis of the deposited data

Results flagged for a closer look

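In 142 groups of 4 arrays tested over 71 named genes, 4 held an array far from the others, and chance alone sets about 1 in 20 groups apart in this way. Sp3, a transcription factor gene beside Atf2, read 8.16 log2 on WT + TNFa 2 and 8.83 to 8.91 on the other WT + TNFa arrays. Sema6d read 9.46 on WT + TNFa 4 and 9.20 to 9.24 on the rest of that group. Cpn1 read 7.12 on mutant + TNFa 4 against 6.97 to 6.99, and Gstm5 read 10.78 on mutant + TNFa 1 against 10.91 to 10.93. Reg4 stood out because its genotype difference was larger with TNFa than without it, by 0.69 log2.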

How the results depend on the processing

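Of 23 alternatives, none turned the direction of a named called gene. The probe set rules could hardly differ, with 18851 probe sets for 18850 genes, and each called the same 317 genes. Other filters and thresholds, the variance trend, and the restriction to genes that are not dim in either group use the same differences and could not change a direction. The same holds for the 8 TNFa arrays alone, for either replicate block, and without untreated WT 1 and WT 2. Leaving out 1 TNFa array could not change it either where the groups do not overlap. Of the 62 named called genes, 43 kept their call in every alternative that tested them, other than adjusted p under 0.01. The filter at the 60th percentile left some of the 43 untested, among them Ctla2a, Meis2 and Hoxb6. The restriction to genes that are not dim in either group was not scored gene by gene. The counts of higher and lower genes (184 and 133) went to 112 and 73 with only the 8 TNFa arrays, 363 and 254 with array weights, 88 and 46 at adjusted p under 0.01, and 810 and 791 at unadjusted p under 0.05. Leaving out 1 array gave 117 to 202 higher and 70 to 138 lower genes. With at least 2-fold the counts (23 and 14) became 13 and 9 with a filter at the 60th percentile, and 14 and 9 over genes that are not dim in either group, an alternative added after seeing the data. The 123 genes called the same way without TNFa became 66 at adjusted p under 0.01 and 508 at unadjusted p under 0.05. The count of genes whose genotype difference changed with TNFa (1) became 3 with the stricter filter, 5 with a variance trend, 3 with array weights, 0 with either replicate block, 0 without untreated WT 1 and WT 2 (also added after seeing the data), 0 at adjusted p under 0.01, 855 at unadjusted p under 0.05, and 0 to 4 when 1 array was left out. The causes of these moves were not tested.

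The samples were not treated as pairs by title number. Same-numbered mutant and WT arrays with TNFa correlated at −0.02, 0.25, 0.11 and −0.10 in their deviations from the group means. Of these, only the arrays numbered 2 correlated best with their own number. Same-numbered arrays with and without TNFa correlated at 0.01, −0.30, −0.26 and −0.13 in WT. In mutant organoids they correlated at 0.02, −0.07, 0.19 and −0.09. The labels do not say what the numbers mean, so these values cannot show whether samples were paired. With the number as a replicate block, 262 genes were called, of which 251 were among the 317. With genotype and number as a random block (consensus correlation −0.08) it was 312, of which 308 were among them. Without untreated WT 1 and WT 2 it was 297, of which 272 were among them. Probe sets are dim below 6.56 log2, which limits the folds of 48 of the 317 called genes.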
